A study of Rattus norvegicus with 20 samples.

Results

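Psmb8, Psmb9 and Cd74 were chosen by name as 3 of the 750 endogenous genes counted, and each was followed over all 20 libraries by hemisphere and by animal. Psmb8 and Psmb9 encode catalytic subunits of the immunoproteasome, and Cd74 encodes the class II invariant chain. The libraries came from the brains of 10 female rats with a controlled cortical impact, in which a piston bruises the cortex to model traumatic brain injury. Every rat gave 1 ipsilateral sample, from the injured hemisphere, and 1 contralateral sample, from the opposite hemisphere of the same injured brain. All animals carried the injury, so the contralateral hemisphere is an internal comparison and not tissue of an uninjured animal. Some animals received intranasal L-myc immortalized human neural stem cells and others vehicle, but the labels do not say which, so both hemisphere groups may hold both treatments and no treatment comparison was made. Age, strain and the time after injury are not given in the sources used here. RNA was counted on the NanoString nCounter, which counts barcoded probes one molecule at a time, with no amplification step.

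The proteasome cuts cytosolic proteins into peptides. In cells exposed to interferon-gamma, the catalytic subunits Psmb8, Psmb9 and Psmb10 take the places of the constitutive subunits Psmb5, Psmb6 and Psmb7, and the resulting immunoproteasome yields peptides suited to MHC class I. Cd74 serves the other arm of antigen presentation: it binds new MHC class II molecules in the endoplasmic reticulum, keeps their groove closed and guides them to endosomes, where cathepsin S (Ctss) trims it away. In the brain, microglia, infiltrating macrophages and border-associated macrophages are the best known sources of class II and Cd74, whereas immunoproteasome subunits can be induced in many cell types.

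The promoters of the 3 genes, and that of Psmb10, are shown because the genes are classical targets of cytokine signalling and because their hemisphere differences are set side by side further on. Each is the RefSeq sequence of the GRCr8 rat genome from 250 bases before to 50 bases after the start given in the promoter table, read 5′ to 3′ on the gene's strand. Capitals mark matches, on either strand, to the interferon-stimulated response element (ISRE, searched as GAAA, any pair of bases, GAAA), the gamma-activated site (GAS, TTCNNNGAA), the NF-kappaB motif and the CCAAT box. The windows lie at chr20:4656982-4657281 on the minus strand for Psmb8, chr20:4668750-4669049 on the plus strand for Psmb9, chr18:56526956-56527255 on the plus strand for Cd74 and chr19:50743243-50743542 on the minus strand for Psmb10.
Psmb8: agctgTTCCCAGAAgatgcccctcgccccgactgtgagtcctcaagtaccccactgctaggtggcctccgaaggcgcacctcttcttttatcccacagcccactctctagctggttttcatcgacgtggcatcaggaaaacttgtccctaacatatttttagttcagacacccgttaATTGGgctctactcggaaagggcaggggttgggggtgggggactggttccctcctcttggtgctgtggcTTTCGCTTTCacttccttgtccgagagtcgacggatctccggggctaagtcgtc
Psmb9: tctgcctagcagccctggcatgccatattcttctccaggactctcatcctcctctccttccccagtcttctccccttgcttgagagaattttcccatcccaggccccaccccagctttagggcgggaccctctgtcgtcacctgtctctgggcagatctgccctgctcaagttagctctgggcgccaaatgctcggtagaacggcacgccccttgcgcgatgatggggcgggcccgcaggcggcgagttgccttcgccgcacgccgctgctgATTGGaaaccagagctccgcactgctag
Cd74: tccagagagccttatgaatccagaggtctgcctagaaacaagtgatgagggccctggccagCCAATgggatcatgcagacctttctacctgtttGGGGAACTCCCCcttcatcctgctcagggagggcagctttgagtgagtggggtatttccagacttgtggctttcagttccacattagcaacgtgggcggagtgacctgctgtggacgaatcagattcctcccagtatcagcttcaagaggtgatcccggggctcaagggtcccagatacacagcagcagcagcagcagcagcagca
Psmb10: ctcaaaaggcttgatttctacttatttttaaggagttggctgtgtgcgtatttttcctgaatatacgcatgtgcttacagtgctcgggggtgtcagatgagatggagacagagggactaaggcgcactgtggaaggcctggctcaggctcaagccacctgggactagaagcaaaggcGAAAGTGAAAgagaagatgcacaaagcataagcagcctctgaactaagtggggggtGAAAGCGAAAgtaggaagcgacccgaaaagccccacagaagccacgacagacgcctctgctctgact

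The Psmb8 window held an ISRE match (TTTCGCTTTC as read on this strand) beginning 4 bases before the start, a GAS match 245 bases before it and an inverted CCAAT box 73 bases before it. The Psmb10 window held a pair of ISRE matches, GAAAGTGAAA and GAAAGCGAAA, 73 and 17 bases before the start. The Psmb9 window held none of the ISRE, GAS or NF-kappaB patterns, only an inverted CCAAT box 22 bases after the start. Psmb9 lies head to head with Tap1, the peptide transporter gene, with 456 bases between the starts in that table, and an ISRE match 121 bases before the Tap1 start ended 86 bases upstream of the first base of the Psmb9 window. The same stretch held an NF-kappaB match 55 bases before the Tap1 start, also outside the Psmb9 window. In the Cd74 window, a run of overlapping NF-kappaB matches began 156 bases before the start and a CCAAT box 189 bases before it. Among all 33469 rat promoter windows of this length, 3.92% held the ISRE pattern, 8.87% the GAS pattern, 7.51% the NF-kappaB motif and 37.5% a CCAAT box. These matches describe letters in a window, not binding. In the RefSeq gene table, Psmb8 spans positions 4654068 to 4657049 and Psmb9 positions 4668952 to 4674421 of chromosome 20, and Cd74 spans positions 56527071 to 56536406 of chromosome 18. The starts used for the windows lie 18 bases (Psmb8), 48 bases (Psmb9) and 135 bases (Cd74) inside these outermost bounds. From the outermost bound of Cd74, the NF-kappaB run begins 21 bases and the CCAAT box 54 bases upstream, and the Psmb8 ISRE match falls inside the bound of that gene.

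Total counts over the 770 gene probes ranged from 38015 to 150613 in the ipsilateral and from 34454 to 319964 in the contralateral libraries. A scaled count is the raw count divided by the library's housekeeping factor, which ran from 0.289 to 4.27. The 8 negative control probes averaged 5.79 ± 1.31 raw counts ipsilaterally and 4.76 ± 1.20 contralaterally (SD, n = 10 each), with a highest single count of 18. The ipsilateral libraries formed one counting set and the contralateral libraries another, so set and hemisphere cannot be told apart. Positive controls, which are spiked in, had a 1.45-fold higher geometric mean in the ipsilateral set. None of the probe accessions (0 of 770) was found in the rat RefSeq table although 705 of the 770 symbols were, and 15 MHC symbols begin with H2-, the mouse naming. How well each probe binds its rat transcript was not tested, so a low count cannot be read as low expression, and levels are not compared between genes.

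All 3 genes were higher ipsilaterally in the fit across the panel, by 2.08-fold for Psmb9, 2.17-fold for Cd74 and 2.45-fold for Psmb8. Differences between the hemispheres were common in these brains: of the 193 genes that reached a mean of 20 raw counts, 47.2% were called higher ipsilaterally and 10.4% lower (edgeR quasi-likelihood test with the animal as a block, Benjamini-Hochberg adjusted p under 0.05). The median log2 fold change over the 193 genes was 0.30. By size of the log2 fold change, Psmb8 ranked 18, Cd74 27 and Psmb9 30 among them. In bulk tissue, a change in the number of cells that carry a transcript and a change in the amount per cell cannot be told apart.

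**Figure D1:**
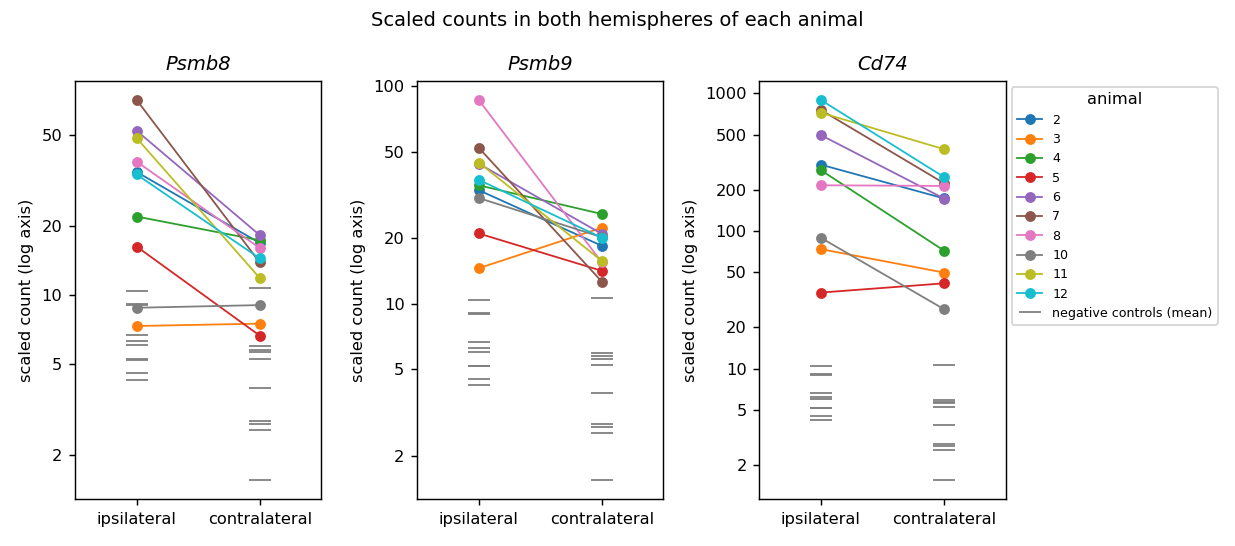
Scaled counts (log axis) of Psmb8, Psmb9 and Cd74 in the ipsilateral and contralateral library of each of the 10 rats, with a line joining the hemispheres of one animal and grey dashes at each library's mean negative control. Ipsilateral Psmb8 spans 7.30 to 70.8 scaled counts against 6.62 to 18.2 contralaterally, and Cd74 is widely spread in both hemispheres.

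Psmb8, the subunit that gives the immunoproteasome its chymotrypsin-like activity, had 7.30 (lowest), 33.9 (median) and 70.8 (highest) scaled counts in the ipsilateral libraries, against 6.62, 14.1 and 18.2 in the contralateral libraries. Of the 10 ipsilateral libraries, 7 lay above the highest contralateral one, while animals 3, 5 and 10 lay within the contralateral range. The log2 fold change was 1.30 ± 0.24 (SE; edgeR adjusted p = 0.00124), and the ipsilateral value exceeded the contralateral one in 8 of 10 animals, a count that 54.9% of tested genes reached or passed. The exact paired sign-flip test gave a mean difference of 1.05 ± 0.77 (SD, n = 10) in log2(scaled count + 1) and a two-sided unadjusted p of 0.00781. The ratio of the hemispheres was 5.12 in animal 7 and 4.08 in animal 11, against 0.976 in animal 3 and 0.974 in animal 10. Its 95% counting interval, which covers counting error only, lay above 1 in 6 animals and below 1 in 0. Psmb8 stood above the highest negative control of its library in 7 of 10 ipsilateral and 7 of 10 contralateral libraries. The exceptions in both hemispheres were animals 3, 5 and 10, with raw counts of 9, 10 and 12 ipsilaterally and 6, 7 and 4 contralaterally, so the Psmb8 ratios of these animals are ratios of near-background counts.

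Psmb9, the subunit that replaces the caspase-like site of the constitutive proteasome, had 14.6, 36.2 and 86.6 scaled counts (lowest, median and highest) ipsilaterally, against 12.7, 19.3 and 25.9 contralaterally. The contralateral values were tight, with a coefficient of variation of 22.0% against 49.5% ipsilaterally, and 8 ipsilateral libraries lay above the highest contralateral one. Psmb9 was above the highest negative control in all 20 libraries. The margin was narrow in animal 10 contralaterally (9 against 8 raw counts) and in animal 5 ipsilaterally (13 against 11). The log2 fold change was 1.06 ± 0.26 (SE; edgeR adjusted p = 0.00507), with a higher ipsilateral value in 9 of 10 animals, a count that 30.1% of tested genes reached or passed. The exact paired test gave 0.95 ± 0.84 (SD, n = 10) and an unadjusted p of 0.00977. Animal 8 had the highest ratio, 5.58, with 86.6 scaled counts ipsilaterally against 15.5 contralaterally. Animal 3 was the exception in direction, with 14.6 ipsilaterally against 22.4 contralaterally and a counting interval of the ratio from 0.319 to 1.33. The interval lay above 1 in 5 animals (2, 6, 7, 8 and 11). Leaving out animal 8, whose ipsilateral library was the shallowest by housekeeping counts, gave the lowest log2 fold change of the 10 such fits, 0.89, and the call remained.

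Cd74 had 35.7, 290 and 894 scaled counts (lowest, median and highest) ipsilaterally, against 27.0, 172 and 393 contralaterally. Unlike in the proteasome subunits, the hemisphere groups overlapped broadly: 4 ipsilateral libraries (animals 6, 7, 11 and 12) lay above the highest contralateral one. Its spread was large on both sides, with coefficients of variation of 80.8% ipsilaterally and 71.8% contralaterally, against 61.2% and 32.1% for Psmb8. The 3 animals with the lowest ipsilateral Cd74 (5, 3 and 10) also had the lowest contralateral Cd74, so animals differed in Cd74 in both hemispheres at once. The same 3 animals were lowest for Psmb8 in both hemispheres, at counts not above the highest negative control, and lowest for Psmb9 ipsilaterally but not contralaterally. Within animals, the log2 fold change was 1.12 ± 0.22 (SE; edgeR adjusted p = 0.00147), with a higher ipsilateral value in 9 of 10 animals. The exact paired test gave 1.08 ± 0.79 (SD, n = 10) and an unadjusted p of 0.00586. Without the animal block the log2 fold change was 1.25 with an adjusted p of 0.0500, which was not called, while 49.7% of tested genes were called higher. The counting interval of the ratio lay above 1 in 8 animals. The exceptions were animal 5, with 35.7 scaled counts ipsilaterally against 41.6 contralaterally, and animal 8, with 215 against 213.

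**Figure D2:**
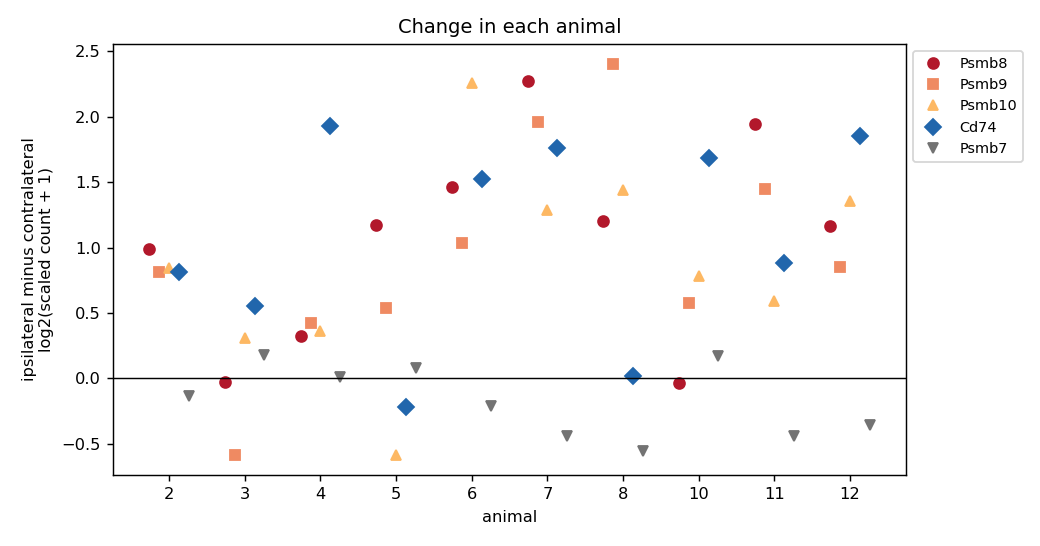
Ipsilateral minus contralateral difference in log2(scaled count + 1) of Psmb8, Psmb9, Psmb10, Cd74 and Psmb7 (one symbol per gene) in each of the 10 animals, with the horizontal line at no difference. In animal 8 the Psmb9 difference is 2.41 and the Cd74 difference 0.02, while in animal 10 Cd74 stands at 1.69 and Psmb8 at -0.03. Psmb8 counts of animal 10 lie near background, and the counting interval of their ratio runs from 0.295 to 4.14.

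The mean differences of the 3 genes lay close together, but the animals behind them differed. Animal 8 had a hemisphere ratio of 5.58 for Psmb9 and 1.01 for Cd74. Animal 10 had a ratio of 3.30 for Cd74 and 0.974 for Psmb8, and animal 4 had the highest Cd74 ratio, 3.84, with 1.27 for Psmb8. Animal 7 was the one animal among the top 3 for each of the 3 genes, with ratios of 5.12 for Psmb8, 4.13 for Psmb9 and 3.40 for Cd74. Its contralateral library had the largest factor, 4.27, against 1.13 ipsilaterally. Raw ipsilateral and contralateral counts in animal 7 were 80 and 59 for Psmb8, 59 and 54 for Psmb9, and 855 and 949 for Cd74. In animal 8 the factors were 0.289 ipsilaterally and 2.13 contralaterally, and raw Psmb9 was 25 against 33. The ratios of animals 7 and 8 thus rest largely on the library factors. Tested within animals, the difference between the Psmb8 and Psmb9 changes was 0.09 ± 0.59 (SD, n = 10) on the log2 scale and ran from -1.16 to 0.65. Between Psmb8 and Cd74 it was -0.03 ± 1.17 and ran from -1.86 to 1.43, and between Psmb9 and Cd74 it was -0.12 ± 1.21 and ran from -1.51 to 2.46. None of the 3 differences passed the exact test (adjusted p = 0.938 for each), and these ranges leave room for differences in either direction in single animals. Leaving out 1 animal at a time gave 0.03 to 0.23, -0.19 to 0.17 and -0.41 to 0.03 for the 3 differences, with 0.23 and -0.41 reached without animal 8 (adjusted p = 0.287 for both). The mean absolute distance between changes over the 10 animals was 0.48 for Psmb8 and Psmb9, against 0.90 for Psmb8 and Cd74 and 0.92 for Psmb9 and Cd74. By that distance Psmb9 was the 18th nearest of the tested genes to Psmb8, whereas Cd74 was 99th to Psmb8 and 116th to Psmb9. Ranks from the side of Cd74 were not taken. The distances of 0.90 and 0.92 lay below the median distance of Cd74 to all tested genes, 1.06, so Cd74 was not farther from Psmb8 and Psmb9 than from most genes.

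The genes with the most similar changes over the 10 animals, as the 5 smallest mean absolute distances, differed between the proteasome subunits and Cd74. Nearest to Psmb8 were Pik3cg (a phosphoinositide 3-kinase subunit of leukocytes) at 0.28, Nfatc1 at 0.35, Apoe at 0.36, Ly96 (a partner of Toll-like receptor signalling) at 0.39 and Ifih1 (an interferon-inducible sensor of viral RNA) at 0.39. Nearest to Psmb9 were Ifih1 at 0.21, Nfatc1 at 0.31, Apoe at 0.31, C3ar1 (a complement receptor) at 0.34 and Ctsh (a lysosomal protease) at 0.35. Nearest to Cd74 were Cd37 (a leukocyte tetraspanin) at 0.52, Tgfb1 at 0.57, Inpp5d (a phosphatase of haematopoietic cells) at 0.61, Cdh5 (endothelial cadherin) at 0.62 and Fn1 (fibronectin) at 0.64. The median distance over all tested genes was 0.88 for Psmb8, 0.84 for Psmb9 and 1.06 for Cd74. Psmb8 and Psmb9 shared 3 of their 5 nearest genes, and neither shared one with Cd74. How often other pairs of tested genes share a nearest gene was not taken. The lack of a shared gene with Cd74 can therefore not be read as setting it apart. All genes of an animal share its housekeeping factors in these distances.

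The third catalytic subunit of the immunoproteasome, Psmb10, averaged 56.7 ± 22.3 scaled counts in the ipsilateral and 30.2 ± 11.2 in the contralateral libraries (SD, n = 10 each). It was higher in 9 of 10 animals, by 0.88 ± 0.22 on the log2 scale (SE; edgeR adjusted p = 0.00597), and was not called with each library centred on its median (0.42, adjusted p = 0.0817). Psmb7, the constitutive subunit whose place Psmb10 takes, averaged 1088 ± 212 ipsilaterally and 1209 ± 113 contralaterally. Its log2 fold change was -0.17 ± 0.09 (SE; edgeR adjusted p = 0.116), and it was called lower under TMM scaling (-0.45, adjusted p = 0.0109), with DESeq2 size factors (-0.48, adjusted p = 0.0118) and with median centring (-0.62, adjusted p = 0.00202), settings in which 24.4%, 25.9% and 36.8% of all tested genes were called lower. Psma2, a subunit of the outer ring shared by both proteasome forms, had a log2 fold change of -0.07 (edgeR adjusted p = 0.495). Psma2 too was called lower under TMM scaling (-0.35, adjusted p = 0.0138), with DESeq2 size factors (-0.38, adjusted p = 0.0138) and with median centring (-0.52, adjusted p = 0.00226). In tests chosen after the values were seen, the immunoproteasome subunits changed more than Psmb7 in the same animals, a difference in which the library factor cancels apart from the pseudocount. It was 1.22 ± 1.08 for Psmb8, 1.13 ± 1.13 for Psmb9 and 1.03 ± 0.96 for Psmb10 (log2, SD, n = 10; exact test, adjusted p = 0.0137 for each), positive in 8, 9 and 9 animals. All 3 calls held in 10 of 10 fits that left out 1 animal. From the highest log2 fold change down, Psmb7 ranked 164 among the tested genes, whose median was 0.30. Most tested genes thus had a higher log2 fold change than Psmb7. The share of them that would pass the same test against Psmb7 was not taken. These calls can therefore not be read as particular to the immunoproteasome subunits.

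**Figure D3:**
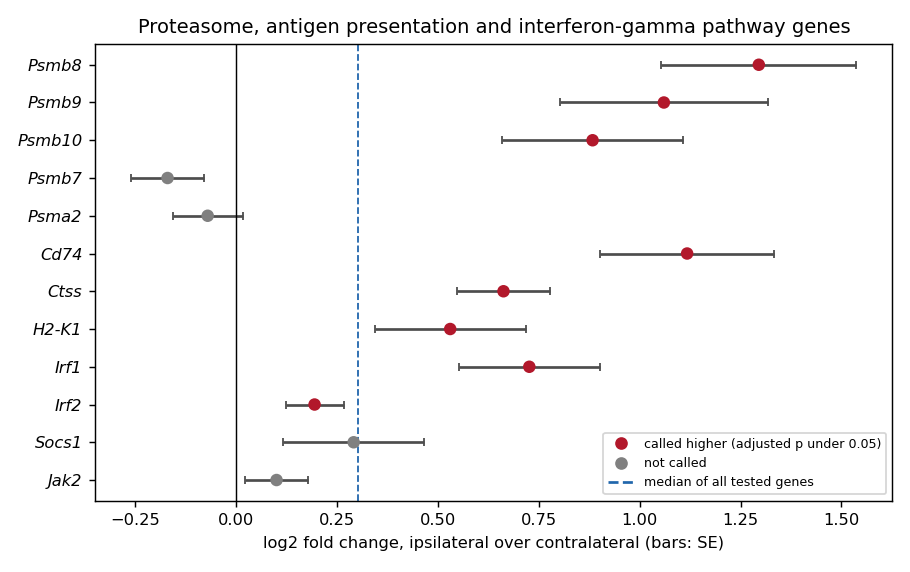
Log2 fold change (ipsilateral over contralateral, points, with SE bars) of tested genes of antigen presentation, the proteasome and the interferon-gamma pathway from the edgeR fit with the animal as a block, in red where called higher and grey where not, with a dashed line at the median of all tested genes. The immunoproteasome subunits and Cd74 stand between 0.88 and 1.30, while Psmb7 and Psma2 lie at -0.17 and -0.07.

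Of the 55 genes named in the antigen presentation and proteasome list, 18 were on the panel and 6 passed the count minimum. Of these, 5 were called higher (Psmb8, Psmb9, Psmb10, Cd74 and Ctss) and 0 lower, against 47.2% higher among all tested genes, with a median log2 fold change of 0.97 against 0.30. Under TMM scaling 5 were higher and 1 lower, against 30.1% and 24.4% of all tested genes. With median centring 3 were higher and 1 lower, against 20.7% and 36.8%. Psmb8, Psmb9 and Cd74 are themselves among the 6, so these counts and the median repeat their results and add no separate evidence. Besides them, Psmb10 and Ctss were called higher in the housekeeping fit and Psmb7 was not called. Psma2, a proteasome subunit outside the list, was not called either. Ctss, the protease that trims Cd74, averaged 882 ± 261 scaled counts in ipsilateral and 537 ± 73.8 in contralateral libraries (SD, n = 10 each). It was higher in 10 of 10 animals, as 7.25% of tested genes were, by 0.66 ± 0.11 (SE; edgeR adjusted p = 0.0011), but was not called with median centring (adjusted p = 0.0717). The 12 list members under the minimum include the transporter subunits Tap1 and Tap2, with mean raw counts of 4.3 and 3.35, Tapbp with 5.65, and the class I and class II transactivators Nlrc5 and Ciita with 3.65 and 3.45. These counts lie at the negative controls, so no direction is given for them.

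The MHC molecules that these genes serve were read by probes with mouse symbols. H2-K1, a class I heavy chain, was the one of 15 such probes that reached the minimum, and averaged 32.4 ± 10.6 scaled counts in ipsilateral and 22.4 ± 4.98 in contralateral libraries (SD, n = 10 each). Its log2 fold change was 0.53 ± 0.19 (SE; edgeR adjusted p = 0.0295), higher in 7 of 10 animals, and it was not called under TMM scaling, DESeq2 size factors or median centring. Leaving out animal 2, 7, 8 or 11 also ended its call, with adjusted p up to 0.0739. With the minimum lowered to a mean of 10 counts, which admits 265 genes of which 38.1% were called higher, the class II beta chain H2-Ab1 was higher by 0.97 ± 0.23 (SE; edgeR adjusted p = 0.00454). H2-Ab1 counts exceeded the library's highest negative control in 8 of 10 ipsilateral and 7 of 10 contralateral libraries, so the size of this difference is uncertain. The class II chains H2-Aa (0.87 ± 0.36, adjusted p = 0.0599) and H2-Eb1 (0.70 ± 0.33, adjusted p = 0.0957) were not called in that edgeR fit. Neither were H2-Dma, a subunit of the peptide-loading chaperone that acts after Cd74 is trimmed (0.34 ± 0.28, adjusted p = 0.308), or the non-classical class I gene H2-T23 (0.19 ± 0.28, adjusted p = 0.562). Mouse probes for such polymorphic genes may read several rat genes or none, which was not tested.

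Interferon-gamma signals through the kinases Jak1 and Jak2 and raises the transcription factor Irf1, which drives immunoproteasome and class II transactivator genes. Irf1 averaged 93.1 ± 35.9 scaled counts in ipsilateral and 54.0 ± 7.90 in contralateral libraries (SD, n = 10 each). It was higher by 0.73 ± 0.17 on the log2 scale (SE; edgeR adjusted p = 0.00492), in 8 of 10 animals, and was not called with median centring (0.27, adjusted p = 0.0985). Irf2, which competes with Irf1 for the same sites, was higher by 0.19 ± 0.07 (adjusted p = 0.0357) with the scaling by 17 housekeeping genes and lower with median centring (-0.26, adjusted p = 0.0129). It was not called with all 20 housekeeping genes (0.08, adjusted p = 0.36), at a minimum of 10 counts (adjusted p = 0.0504), with no minimum (adjusted p = 0.155) or with limma after background subtraction (adjusted p = 0.0584). Its call was kept in 4 of 10 fits that left out 1 animal, those without animals 2, 3, 6 or 10, with adjusted p up to 0.0858 in the others. The kinase Jak2 (0.10 ± 0.08, adjusted p = 0.269) and the feedback inhibitor Socs1 (0.29 ± 0.18, adjusted p = 0.16) were not called with the housekeeping scaling, and Jak2 was called lower with DESeq2 size factors (-0.21, adjusted p = 0.0445) and with median centring (-0.35, adjusted p = 0.0054). Ifng itself had a mean raw count of 3.95, at the negative controls. Set against Irf1 in the same animals, the changes of Psmb8, Psmb9 and Cd74 differed by 0.35 ± 0.59, 0.26 ± 0.47 and 0.38 ± 0.95 (SD, n = 10), and none passed the exact test (adjusted p = 0.207, 0.236 and 0.304).

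Several markers of cells that carry Cd74 were also higher ipsilaterally. Of the 16 genes named for microglia and macrophages, 10 were on the panel and 4 were tested, all called higher: Cd68 by 2.65 on the log2 scale, Ptprc by 1.66, Fcer1g by 1.35 and Mrc1 by 1.33, against 47.2% of all tested genes called higher. Trem2, a microglial receptor under the minimum, averaged 12.98 ± 3.95 scaled counts in ipsilateral and 12.15 ± 3.995 in contralateral libraries (SD, n = 10 each), with a higher ipsilateral value in 5 of 10 animals. At a minimum of 10 counts it was not called (0.18, edgeR adjusted p = 0.551). The list's summed scaled count ran from 135 to 913 in the ipsilateral libraries, against 130 to 177 in the contralateral ones, while Itgam, Cx3cr1 and Csf1r were near the negative controls with mean raw counts of 2.1, 3.45 and 5.2. Dendritic cell markers (4 on the panel, 0 tested, highest mean raw count 6.6) summed to 10.8 to 65.8 ipsilaterally against 4.22 to 38.3 contralaterally. B and plasma cell markers (8 on the panel, 0 tested, highest mean raw count 6.25) summed to 24.1 to 90.1 ipsilaterally against 11.3 to 72.1 contralaterally. Both lists lie at the negative controls, whose scaled mean was itself 6.67 ± 2.12 ipsilaterally and 4.68 ± 2.63 contralaterally (SD, n = 10 each), so these sums compare background. Of 12 T and NK cell markers on the panel, Cd3e alone was tested, with a log2 fold change of -0.38 ± 0.39 (SE; edgeR adjusted p = 0.409). All 3 tested endothelial markers (Cdh5, Tek and Tie1) were also called higher, as was Vim, the only tested gene of the astrocyte list. The other gene of that list on the panel, S100b, had a mean raw count of 2.4, so a change in astrocytes cannot be read here. The neuronal marker Nefl was lower (-0.31, edgeR adjusted p = 0.0397). Its call was kept in 3 of 10 fits that left out 1 animal, those without animals 2, 5 or 10 (adjusted p up to 0.0846 in the others). The part of any of these cells in the differences of Psmb8, Psmb9 and Cd74 was not tested.

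Relative to the phagocyte gene Cd68 in the same animals, the changes of the 3 genes were smaller. The difference was -1.28 ± 0.99 for Psmb8 and -1.37 ± 0.87 for Psmb9, negative in 9 of 10 animals each, and -1.25 ± 1.27 for Cd74, negative in 8 of 10 (log2, SD, n = 10; exact test, adjusted p = 0.0352, 0.0352 and 0.0469). These calls were fragile: leaving out 1 animal at a time kept 3, 3 and 2 of 10. Fewer animals leave fewer sign patterns, so the exact p is coarser in those fits. The differences themselves stayed negative, from -1.50 to -1.13 for Psmb8, -1.53 to -1.20 for Psmb9 and -1.44 to -0.99 for Cd74. The calls were kept for all 3 genes without animal 3 or 10 and, for Psmb8 and Psmb9, without animal 5. Leaving out any of animals 2, 4, 6, 7, 8, 11 and 12 ended all 3, with adjusted p up to 0.0703 for Psmb8 and Psmb9 and 0.0938 for Cd74. Against the leukocyte gene Ptprc the differences were -0.34 ± 0.99, -0.43 ± 0.96 and -0.30 ± 1.18, with adjusted p of 0.358, 0.29 and 0.418, and ran between -2.04 and 1.87 in single animals.

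**Figure D4:**
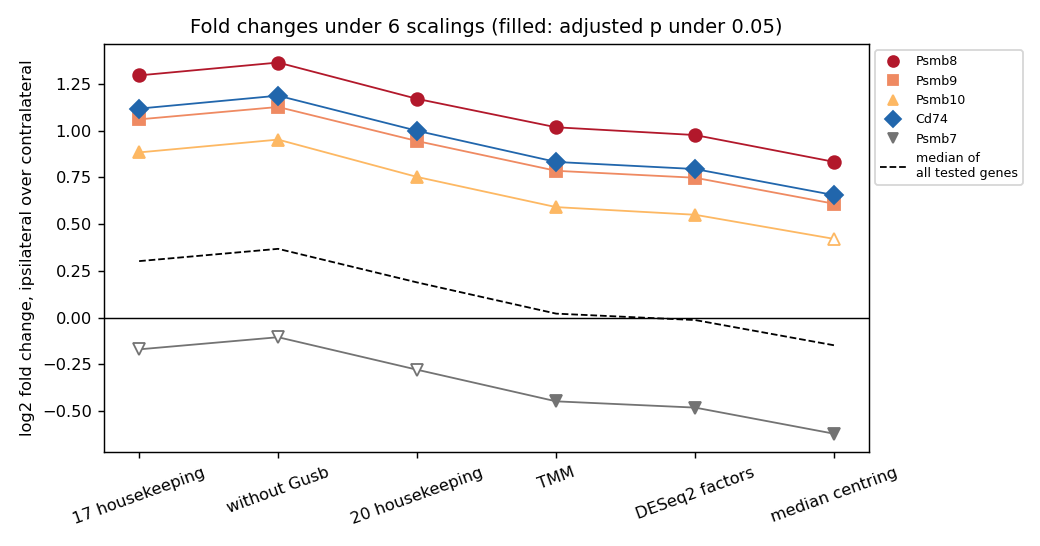
Log2 fold change (ipsilateral over contralateral) of Psmb8, Psmb9, Psmb10, Cd74 and Psmb7 under each library scaling, filled where the adjusted p is under 0.05, with the median over the tested genes as a dashed line. With median centring Psmb8, Psmb9 and Cd74 stand at 0.83, 0.61 and 0.65, where the median of all tested genes is -0.15.

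The choice of scaling moved these differences together with the rest of the panel. Over the 193 genes, the median log2 fold change stood at 0.30 in the housekeeping fit, at 0.02 under TMM and at -0.15 after centring on the median. Psmb8 was 1.02 under TMM and 0.83 with median centring (adjusted p = 0.00255 and 0.00471). Psmb9 was 0.78 and 0.61 (adjusted p = 0.00754 and 0.0247), and Cd74 was 0.83 and 0.65 (adjusted p = 0.00799 and 0.0129). All 3 genes were also called higher with all 20 housekeeping genes, without the housekeeping gene Gusb and with DESeq2 size factors, settings in which 39.4%, 56.0% and 29.0% of all tested genes were called higher. The same held with DESeq2 (46.1%) and with limma after background subtraction (42.5%). At a minimum mean of 50 counts, Cd74 alone of the 3 was tested and was called (44.9% higher). Psmb8 averaged 31.0 raw counts ipsilaterally and 19.5 contralaterally, so it reached the minimum of 20 through its ipsilateral counts, whereas Psmb9, with 34.7 and 23.8, reached it in both hemispheres. With no minimum, where 13.7% of 750 genes were called higher, Psmb8 was higher by 1.26 (adjusted p = 0.000809) and Psmb9 by 1.05 (adjusted p = 0.00409).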

How the data were processed

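Whole-number counts per probe were deposited for 784 rows: 750 endogenous genes, 20 taken as housekeeping genes, 8 negative and 6 positive controls. Per the labels' protocols, the authors normalized in nSolver, with no version stated. The deposited counts do not have that form (positive controls differ 2.09-fold between libraries and negative controls are not subtracted), so they were treated as raw counts. A second table holds the same counts under other animal numbers, in 20 of 20 columns of the same hemisphere and with all 10 pairs kept. Numbers here follow the first table.

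Each library was divided by a factor, the geometric mean over 17 housekeeping genes (those averaging at least 20 counts) relative to the other libraries. The 193 of 750 endogenous genes with a mean of at least 20 were tested with edgeR 4.0.16 (R 4.3.3, quasi-likelihood, two-sided, animal as a block, Benjamini-Hochberg over 193 genes). The SE is the log2 fold change divided by the square root of F. The pairing comes from the titles, and residuals of an animal's libraries correlated from -0.21 to 0.50, above 0.1 in 5 of 10 animals. Single-gene differences within animals used log2(scaled count + 1) and were not adjusted. Differences between the changes of 2 genes used log2(raw count + 1) and were adjusted within each family. Both used all 1024 sign patterns of the 10 animals (smallest p 0.00195), and fits without 1 animal had fewer. That the samples are separate animals rests on the titles. Within each hemisphere, no library repeated another (chi-square per degree of freedom at least 1.96). edgeR was also tested on simulated data.

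Alternatives were the fit without the block, other scalings and minimum counts, DESeq2 1.42.0, limma 3.58.1 after background subtraction, another pseudocount and leaving out each animal. Genes named are the 3 genes, members of fixed lists on the panel and the 5 nearest genes of each. The genes and lists were chosen with earlier results of these data known. The H2- genes, Psma2 and the tests against Psmb7 were added after the panel or the values were seen. Treatment was not analysed here. Some genes of the lists are not reported here.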

Additional observations from a re-analysis of the deposited data

Results flagged for a closer look

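Among 30 groups of 10 libraries (12 genes and 3 library measures in each hemisphere), 2 held a library far from the others, and chance gives about 1 in 20. Both were the ipsilateral library of animal 8, which carries the highest scaled Psmb9 count. Its housekeeping geometric mean was 47.5 raw counts, against a median of 165 in the ipsilateral libraries. Its negative controls averaged 3.0 raw counts, against a median of 6.0. Without this animal the log2 fold change of Psmb9 was 0.89, and those of Psmb8 and Cd74 also stayed called.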

How the results depend on the processing

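Psmb8 and Psmb9 kept their direction and their call under 10 of 10 alternatives each, with log2 fold changes from 0.83 to 1.49 and from 0.61 to 1.13. With a minimum mean count of 50 they were not tested. Cd74 kept its call under 10 of 11 alternatives (0.65 to 1.25). Without the replicate block its value was 1.25 with an adjusted p of 0.0500, and the cause was not tested. Without the block Psmb8 was 1.31 and Psmb9 1.09, both called. Leaving out 1 animal at a time gave 1.11 to 1.41 for Psmb8, 0.89 to 1.24 for Psmb9 and 1.02 to 1.24 for Cd74, all called in 10 of 10 fits. Set against Cd68, the ranges were -1.50 to -1.13 for Psmb8, -1.53 to -1.20 for Psmb9 and -1.44 to -0.99 for Cd74, and most of these fits lost the call. With a pseudocount of 5 the Cd74 minus Cd68 difference was -1.09 (adjusted p = 0.0820), no longer called. Psmb8 in animals 3, 5 and 10 is limited by counts near background.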

Other observations

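With the minimum lowered to a mean of 10 counts, 2 further genes of the antigen presentation and interferon-gamma lists were called higher ipsilaterally, against 38.1% of the 265 genes tested. Gbp5, an interferon-inducible GTPase, averaged 14.3 ± 6.27 scaled counts in ipsilateral and 5.66 ± 3.28 in contralateral libraries (SD, n = 10 each), a log2 fold change of 1.40 (edgeR adjusted p = 0.00677). Cd86, the co-stimulatory ligand of antigen-presenting cells, averaged 14.7 ± 8.13 in ipsilateral and 7.57 ± 4.66 in contralateral libraries (log2 fold change 1.02, edgeR adjusted p = 0.0345). Stat2 (0.36, adjusted p = 0.140) and the lysosomal protease Ctsl (0.46, adjusted p = 0.143) were not called in that edgeR fit. Both passed the lowered minimum narrowly, with mean raw counts of 10.8 for Gbp5 and 10.65 for Cd86. Contralateral counts exceeded the library's highest negative control in 2 of 10 libraries for Gbp5 and in 3 of 10 for Cd86. Ipsilateral counts did so in 5 of 10 and 7 of 10. Both the calls and the sizes of these fold changes are therefore uncertain. The ipsilateral value was the higher one in 9 of 10 animals for Gbp5 and in 6 of 10 for Cd86.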
